A study of Mus musculus with 6 samples.

Results

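A set of 10 genes of endothelial vasomotor control was followed in bEND.3 cells, a mouse brain endothelial line that was immortalized, after knockdown of the long non-coding RNA Gm39822. They were taken by name: Nos3, Cav1, Cavin1, Gch1, Arg2, Ddah1 and Ddah2 for nitric oxide, and Edn1, Ece1 and Ednrb for endothelin. All 10 were among the 49315 genes of the count table and all 10 were among the 18234 genes tested. Ddah1 fell to 37.2% of its control level, Edn1 to 56.3% and Ece1 to 66.1%, and Gch1 fell and Cav1 rose by smaller amounts. Nos3, Cavin1, Ednrb, Ddah2 and Arg2 did not pass the test.

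The cells carried 1 of 2 antisense oligonucleotides, delivered with a lipid transfection reagent. The 4 GapmeR samples received a locked nucleic acid GapmeR against Gm39822 at 100 nM, and the 2 Negative Control samples received a negative control GapmeR at 100 nM. A GapmeR pairs with its RNA through a DNA core that recruits RNase H, which cuts the RNA. Every sample is the same cell line, and no source used here says that the samples were separate cultures, so p-values measure the spread between these samples, which may be technical.

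The vascular endothelium sets vessel tone by releasing dilators and constrictors. Endothelial nitric oxide synthase, encoded by Nos3, makes nitric oxide from arginine with tetrahydrobiopterin as cofactor. The enzyme is held in check by caveolin at the cell membrane and by methylated arginines that compete with its substrate. Endothelin 1 is a constrictor peptide, cut from a longer precursor by endothelin converting enzyme, and in endothelial cells its type B receptor is known for clearing the peptide and for signalling to nitric oxide synthase.

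Libraries held between 29261988 and 37117934 counts. Between 22830 and 23566 genes had counts in the GapmeR libraries, and 20573 and 21087 in the controls. Gm39822 itself was counted 2, 1, 4 and 2 times in the knockdown libraries and 61 and 56 times in the Negative Controls, a log2 fold change of -4.82 (SE 0.41, edgeR adjusted p = 8.82e-08). All 12 endothelial markers checked were detected, with a summed level of 9062 to 10379 CPM (read counts scaled to the TMM-normalised library size) after knockdown and 10840 to 11286 in the controls. Of these, Erg and Egfl7 rose, and Pecam1, Cdh5, Kdr, Emcn, Esam and Eng fell. Macrophage markers summed to 227, 208, 348 and 382 CPM in GapmeR samples 1 to 4 and to 172 to 177 CPM in the controls, with 2 of 10 called higher and none at 0. Smooth muscle and pericyte markers summed to 8.68 to 13.3 CPM against 2.19 to 2.34 CPM, with 2 of 7 tested genes higher. Fibroblast markers summed to 92.0 CPM in GapmeR sample 3 and to 17.2 to 22.9 CPM in the other GapmeR samples, against 15.9 to 17.5 CPM in the controls, with none of 6 called. Neuron and glia markers summed to 30.2 to 49.9 CPM against 64.2 to 64.4 CPM, with 6 of 7 lower. The part of these markers in the results was not tested, and in such bulk samples fewer cells of a type and less RNA per cell cannot be told apart.

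The background of change was broad. Of all genes tested, 45.3% had an edgeR adjusted p under 0.05, 25.4% higher and 20.0% lower after knockdown. Of the 10 vasomotor genes 5 passed, 1 higher and 4 lower, so the number that passed was near the background. Their median log2 fold change was -0.08 (median size 0.28) beside 0.03 (median size 0.38) over all genes tested. The knockdown and control values did not overlap for 7 of the 10 genes, beside 59.2% of all genes. Scaling by library size alone, without the TMM factors used here, moved the median log2 fold change of all genes up by 0.15, and the genes higher and lower went from 4625 and 3643 to 6106 and 2135. Among the 10 genes that scaling gave 2 higher and 3 lower. More genes had counts in the GapmeR libraries than in the controls, as given above. With no filter on low counts the median log2 fold change over all genes was 0.16, beside 0.03 with it. That median cannot show a rise of weak genes, because a gene with very few counts falls more often in 4 GapmeR libraries than in 2 controls. Since every GapmeR library had more genes with counts than either control, a rise on few counts was not read as particular to a gene.

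**Figure D1:**
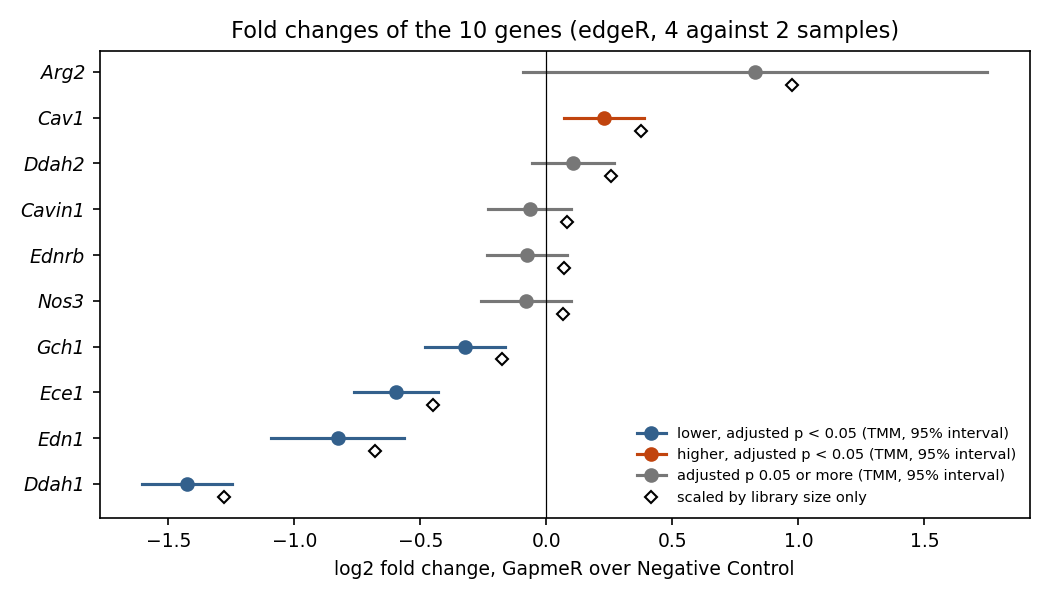
Log2 fold changes of the 10 genes, GapmeR over Negative Control, from edgeR on 4 against 2 samples. Filled points with bars are the TMM-scaled estimates with their 95% intervals, coloured by whether the adjusted p was under 0.05, and open diamonds are the estimates scaled by library size only. Ddah1 lies lowest at -1.43, and the diamonds of Nos3, Cavin1 and Ednrb lie on the other side of 0 from their points.

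Expressed per length, as CPM per kb of exon, the control levels ran from Nos3 at 366 through Cavin1 (222), Cav1 (152), Ednrb (107), Ddah2 (48.2), Ece1 (45.9), Gch1 (34.0), Ddah1 (7.96) and Edn1 (3.40) to Arg2 at 0.181. The ranges of neighbours in this order did not overlap in the controls, although 2 samples give little view of the spread. After knockdown the levels were 346 for Nos3, 212 for Cavin1, 179 for Cav1, 102 for Ednrb, 51.9 for Ddah2, 30.4 for Ece1, 27.2 for Gch1, 2.96 for Ddah1, 1.92 for Edn1 and 0.331 for Arg2. The order of the means was therefore the same in both groups, and after knockdown the ranges of neighbours overlapped only for Ece1 and Gch1. The lengths join all annotated exons of a gene and are not those of the expressed transcript, so the places of close neighbours depend on the annotation. Ddah2 stood above Ece1 by a ratio of 1.05 in the controls, though Ece1 had 305 CPM there and Ddah2 112 CPM. The synthase and the caveola genes were the most abundant, and the endothelin 1 transcript was among the least.

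**Figure D2:**
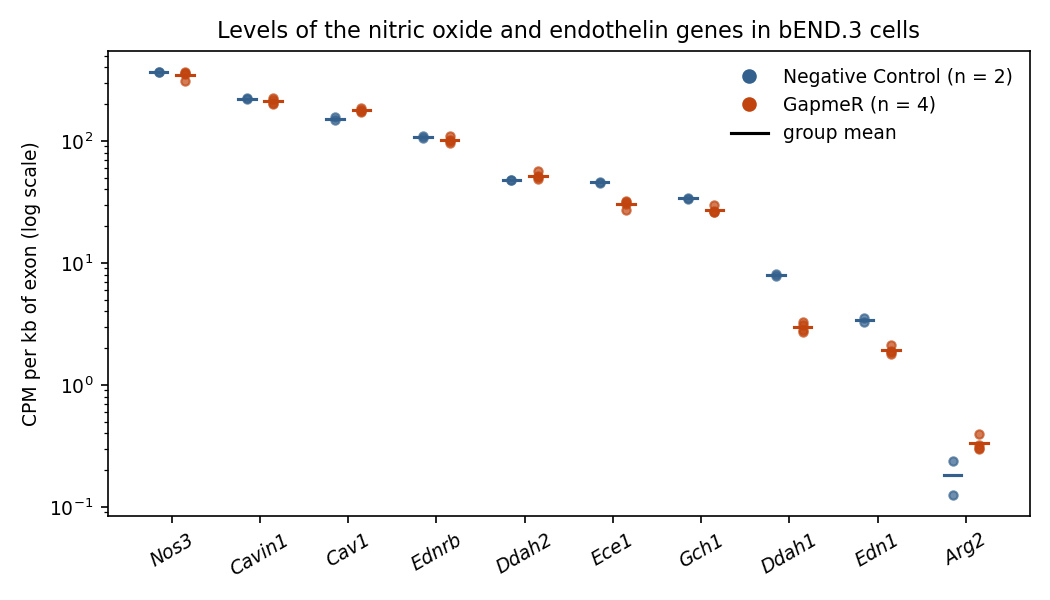
Level of each of the 10 genes in every sample, in CPM per kb of exon on a log axis. Points are samples (4 GapmeR and 2 Negative Control) and lines are group means. The genes span from 366 for Nos3 to 0.181 for Arg2 in the controls, and the gap between the groups is widest for Ddah1 and next for Edn1 among the genes that passed the test.

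Sequence before the start of transcription is shown for 4 genes, as the members with the most to compare: the paralogs Ddah1 and Ddah2, which differed in response, and Edn1 and Gch1, which fell. RefSeq's promoter table on GRCm38.p6 held 13 starts for 8 of the 10 genes. The 250 bases before the start lie at chr3:145758442-145758691 (+) for Ddah1, chr17:35058785-35059034 (+) for Ddah2, chr13:42301226-42301475 (+) for Edn1 and chr14:47189414-47189663 (-) for Gch1, and each is printed 5′ to 3′ on the strand of its gene. Capitals mark matches to 7 short motifs searched on both strands.
Ddah1: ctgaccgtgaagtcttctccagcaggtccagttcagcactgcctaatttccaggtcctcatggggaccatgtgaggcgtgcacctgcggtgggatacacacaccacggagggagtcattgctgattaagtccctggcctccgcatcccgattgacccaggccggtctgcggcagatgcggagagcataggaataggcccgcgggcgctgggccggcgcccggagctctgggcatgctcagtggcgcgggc
Ddah2: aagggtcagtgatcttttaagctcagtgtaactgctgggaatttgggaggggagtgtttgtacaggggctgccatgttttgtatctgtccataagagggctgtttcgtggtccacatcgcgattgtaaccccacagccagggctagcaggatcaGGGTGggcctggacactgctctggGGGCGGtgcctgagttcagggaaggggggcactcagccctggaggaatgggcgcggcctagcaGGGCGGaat
Edn1: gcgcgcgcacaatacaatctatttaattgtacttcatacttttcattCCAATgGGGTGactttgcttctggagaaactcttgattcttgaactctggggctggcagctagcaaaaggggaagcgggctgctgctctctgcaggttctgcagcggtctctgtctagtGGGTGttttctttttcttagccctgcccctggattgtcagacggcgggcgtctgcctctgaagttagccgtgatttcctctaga
Gch1: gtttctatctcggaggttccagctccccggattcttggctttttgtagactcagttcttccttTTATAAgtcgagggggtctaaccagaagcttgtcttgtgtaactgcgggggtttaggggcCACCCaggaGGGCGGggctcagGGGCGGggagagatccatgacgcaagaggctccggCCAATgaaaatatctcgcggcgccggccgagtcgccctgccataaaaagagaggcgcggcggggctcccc

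Ddah1 is printed wholly in lower case because it held none of the 7 motifs. Ddah2 held the GC box GGGCGG at 2 places and the KLF box CACCC, read as GGGTG on the printed strand, at 1. Edn1 held the CCAAT box CCAAT once and CACCC, again as GGGTG, at 2 places. Gch1 held TATAA on both strands of 1 overlapping stretch, CCAAT once, GGGCGG at 2 places and CACCC once. None of the 4 held the AP-1 site TGACTCA, the GATA site GATAA or the hypoxia element core ACGTG. Over 32851 promoter windows of the same length, TATAA was in 22.8%, CCAAT in 33.8%, GGGCGG in 32.7%, CACCC in 52.0%, TGACTCA in 4.46%, GATAA in 22.6% and ACGTG in 16.6%. GC content was 64.0% for Ddah1, 58.0% for Ddah2, 50.4% for Edn1 and 59.2% for Gch1, with a median of 52.4% over all windows. Short matches of this kind are frequent, and neither a match nor its absence from these windows says whether a factor binds.

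The synthase itself was the first question. Nos3 (ENSMUSG00000028978, chr5:24364816-24384474 on GRCm38) had 1754, 1545, 1826 and 1799 CPM across the 4 knockdown samples and 1841 and 1822 CPM in Negative Controls 1 and 2. GapmeR sample 3 lay between the controls and the other GapmeR samples lay below both. Knockdown samples averaged 1731 ± 127 CPM and controls 1832 ± 13.5 CPM, where ± is the SD over 4 and 2 samples here and in what follows, for a log2 fold change of -0.08 (95% interval -0.26 to 0.10, edgeR adjusted p = 0.454). This interval limits the change to that range on the TMM scale, and scaling by library size turned the sign, to 0.07. Atg9b, with 476 to 1368 counts, and Gm15587, with 217 to 401 counts, overlap Nos3 on the opposite strand, while Nos3 had 50440 or more in each sample.

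Cav1 encodes caveolin 1, the coat protein of caveolae that binds and restrains the synthase. Cav1 (ENSMUSG00000007655, chr6:17306335-17341328) stood at 924, 883, 867 and 894 CPM after knockdown and at 779 and 743 CPM in the controls. Every GapmeR sample was above both controls, and the group means differed by 17.2%. Its log2 fold change of 0.23 (SE 0.07, 95% interval 0.07 to 0.39) had an edgeR adjusted p of 0.0196. The call was lost without GapmeR sample 1 (0.21, adjusted p = 0.0505), without Negative Control 1 (0.28, adjusted p = 0.0615) and without Negative Control 2 (0.22, adjusted p = 0.15). Cavin1 (ENSMUSG00000004044, chr11:100956736-100970617) encodes the cavin that caveolae need to form. It stood at 1148, 1079, 1207 and 1091 CPM after knockdown and at 1192 and 1178 CPM in the controls, so the groups overlapped. Its log2 fold change was -0.07 (95% interval -0.23 to 0.10, edgeR adjusted p = 0.511), and 0.08 with library-size scaling.

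Gch1 encodes GTP cyclohydrolase 1, which starts the synthesis of tetrahydrobiopterin. Gch1 (ENSMUSG00000037580, chr14:47153895-47189413) stood at 179, 200, 175 and 174 CPM after knockdown, with GapmeR sample 2 the highest, and at 226 and 230 CPM in the controls. All 4 GapmeR samples were below both controls. The means of 182 ± 12.0 CPM (SD, n = 4) and 228 ± 3.06 CPM (SD, n = 2) gave a log2 fold change of -0.32 (SE 0.08, edgeR adjusted p = 0.00231). Without Negative Control 2 the value was -0.29 (adjusted p = 0.0552), and with library-size scaling it was -0.17 (adjusted p = 0.0745), so the call was lost in both.

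Arginine is also used by arginase 2, the mitochondrial enzyme encoded by Arg2. Arg2 (ENSMUSG00000021125, chr12:79130788-79156301) had 15, 17, 18 and 15 counts after knockdown and 5 and 11 counts in the controls. The groups did not overlap, but so few counts left the log2 fold change of 0.83 with an interval from -0.09 to 1.75 (edgeR adjusted p = 0.132). The value was 0.49 without Negative Control 1 and 1.39 without Negative Control 2, and neither passed. Vti1b lies over Arg2 on the opposite strand with 4202 to 6156 counts, and because the strand setting of the counting is not given in the sources used here, the Arg2 counts are uncertain.

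The dimethylarginine dimethylaminohydrolases break down asymmetric dimethylarginine, the methylated arginine that inhibits the synthase. Ddah1 (ENSMUSG00000028194, chr3:145758692-145894277) was counted 661, 637, 575 and 544 times after knockdown and 1286 and 1556 times without it. In CPM this was 19.5, 16.4, 18.5 and 16.8 after knockdown and 46.9 and 48.8 in the controls. The groups lay far apart, and no GapmeR sample exceeded 661 counts. The log2 fold change was -1.43 (SE 0.08, 95% interval -1.61 to -1.25, edgeR adjusted p = 1.17e-09), and it lay between -1.47 and -1.28 over 14 other settings. A pseudogene inside Ddah1 on the same strand, Rpl36a-ps2, had 51 to 79 counts.

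Ddah2, the paralog, differed. Ddah2 (ENSMUSG00000007039, chr17:35059035-35062099) stood at 116, 132, 119 and 113 CPM after knockdown and at 112 CPM in both controls. All GapmeR samples were above both controls by a small margin, with a log2 fold change of 0.11 (95% interval -0.06 to 0.27, edgeR adjusted p = 0.275). Library-size scaling gave 0.25 (adjusted p = 0.0153), which passed.

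The ratio of the paired genes within each sample does not depend on scaling between libraries. Ddah1 counts were 0.168, 0.124, 0.156 and 0.149 of Ddah2 counts after knockdown and 0.421 and 0.437 of them in the controls. The ratio was thus lower in every GapmeR sample, by 1.53 on the log2 scale as the mean difference, so in these samples Ddah1 fell relative to Ddah2. An exact two-sided permutation test of 4 samples against 2 has 15 arrangements and can give no p below 0.0667, which this ratio reached (adjusted p = 0.10 over 6 ratios).

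Endothelin 1 comes from Edn1 (ENSMUSG00000021367, chr13:42301476-42307990). Its counts were 172, 204, 153 and 187 after knockdown and 247 and 308 in the controls, or 5.08, 5.24, 4.93 and 5.79 CPM against 9.02 and 9.65 CPM. All GapmeR samples were below both controls. The log2 fold change was -0.83 (SE 0.12, 95% interval -1.09 to -0.56, edgeR adjusted p = 5.36e-05), and it passed in all 14 other settings, between -0.87 and -0.68.

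Ece1, which encodes the converting enzyme, fell with its substrate's gene. Ece1 (ENSMUSG00000057530, chr4:137862237-137965229) stood at 204, 179, 212 and 213 CPM after knockdown and at 307 and 303 CPM in the controls. GapmeR sample 2 was the lowest, and no GapmeR sample reached the lower control. The log2 fold change was -0.60 (SE 0.08, 95% interval -0.76 to -0.43, edgeR adjusted p = 1.42e-05), between -0.66 and -0.45 over 14 other settings, in each of which it passed.

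Ednrb, the type B endothelin receptor, did not pass. Ednrb (ENSMUSG00000022122, chr14:103814615-103844508) stood at 490, 449, 459 and 434 CPM after knockdown and at 473 and 492 CPM in the controls. GapmeR sample 1 lay between the controls and the others lay below both. Its log2 fold change was -0.08 (95% interval -0.24 to 0.08, edgeR adjusted p = 0.432), and 0.07 with library-size scaling.

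The receptor and its ligand could be set against each other within samples. There were 96.5, 85.6, 93.0 and 75.0 Ednrb counts for each Edn1 count after knockdown, and 52.5 and 51.0 in the controls. This ratio was higher in every GapmeR sample, by 0.75 on the log2 scale (exact permutation p = 0.0667, adjusted p = 0.10). Ece1 to Edn1 ran from 34.2 to 42.9 after knockdown and stood at 34.1 and 31.4 in the controls, a log2 difference of 0.23 (exact permutation p = 0.133, adjusted p = 0.16). GapmeR sample 2 lay just above the higher control there.

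Ratios to Nos3 were taken for its partners. Cav1 stood at 0.527, 0.571, 0.475 and 0.497 of Nos3 counts after knockdown and at 0.423 and 0.408 in the controls, higher in every GapmeR sample by 0.31 on the log2 scale (exact permutation p = 0.0667, adjusted p = 0.10). Arg2 to Nos3 was higher by 1.01 (exact permutation p = 0.0667, adjusted p = 0.10), on the few Arg2 counts given above. Gch1 to Nos3 differed by -0.24, and its groups overlapped (exact permutation p = 0.40, adjusted p = 0.40). No ratio passed the threshold after adjustment, which a design of 4 against 2 samples does not allow.

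**Figure D3:**
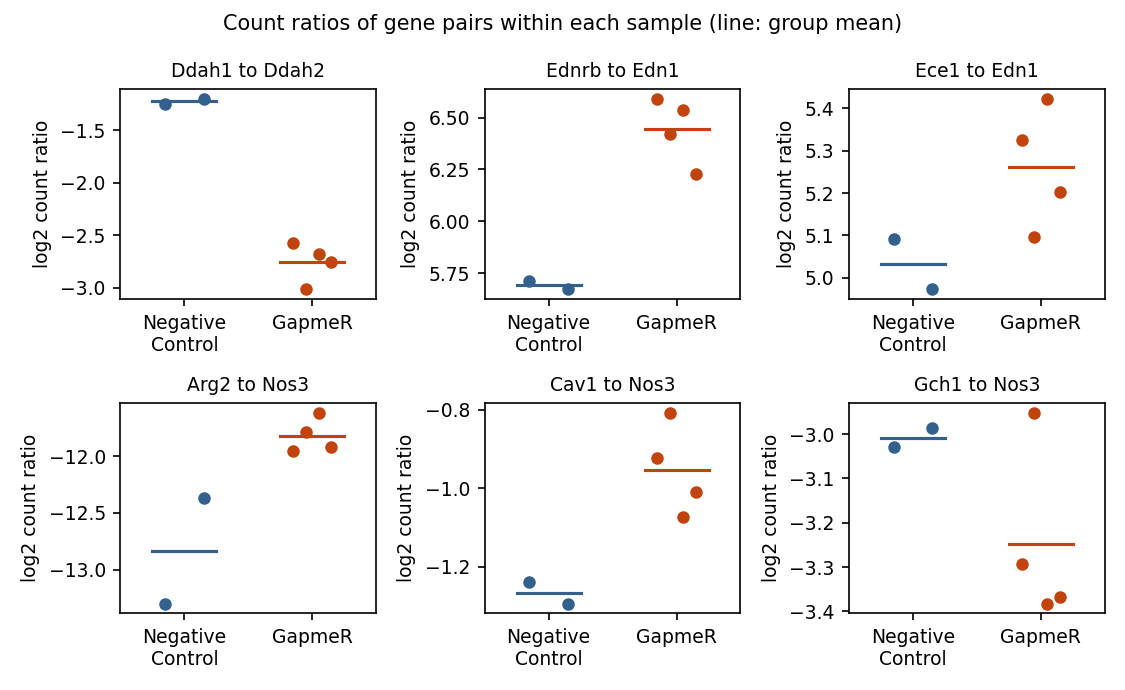
Count ratios of 6 gene pairs within each sample, on a log2 scale with a separate axis for each pair. Points are samples (4 GapmeR and 2 Negative Control) and lines are group means. Ddah1 to Ddah2 is lower in all GapmeR samples by 1.53 in the mean, Ednrb to Edn1 is higher in all by 0.75, and only Gch1 to Nos3 overlaps between the groups.

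The wider pathways were read from 7 lists with 82 genes, of which 67 were tested, 10 were higher, 20 were lower and 37 did not pass. Their median log2 fold change was -0.15 (median size 0.35), beside the 0.03 (0.38) of all genes tested. Over all genes 45.3% passed, 25.4% higher and 20.0% lower, so the share that passed was near the background here too, and nothing was read from the counts of single lists. Among the genes called higher, Pcbd1, Aplnr and Bdkrb2 met the filter on low counts only through the GapmeR samples. Of 14 genes of nitric oxide synthases and their partners, all tested, 1 was higher and 5 were lower, with a median of -0.16. Nos2, the inducible synthase, had 84, 94, 66 and 81 counts after knockdown and 27 and 38 in the controls. It was higher in every GapmeR sample, with a log2 fold change of 1.12 (edgeR adjusted p = 0.000753), and it passed in all 14 other settings. Like other rises on few counts, this one was not read as particular to the gene. The macrophage marker sums given above were also higher in every GapmeR sample, and their part in this result was not tested. Nos1, the neuronal synthase, stood at -0.12 (adjusted p = 0.83) with a sign that changed in 6 settings.

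Nostrin, which encodes a protein that moves the synthase away from the membrane, had 12, 7, 8 and 8 counts after knockdown and 31 and 38 in the controls. Its groups lay apart, and the log2 fold change was -2.15 (edgeR adjusted p = 9.28e-05). Spc25 overlaps Nostrin on the opposite strand with 300 to 741 counts, so this value is uncertain. Klf4 and Klf2, flow-responsive transcription factors that act on Nos3 in endothelium, were lower, by log2 fold changes of -1.06 (67.5 ± 3.40 against 141 ± 6.13 CPM, adjusted p = 4.90e-09) and -0.47 (282 ± 34.0 against 390 ± 44.1 CPM, adjusted p = 0.0018). Without Negative Control 1 Klf2 did not pass (-0.33, adjusted p = 0.0731). Nosip, which encodes a synthase-interacting protein, was lower by -0.35 (adjusted p = 0.00946) and lost its call without Negative Control 1 or Negative Control 2 (adjusted p = 0.0902 and 0.0977) and with library-size scaling (adjusted p = 0.0873). Prr12 and Prrg2 overlap Nosip, with 2969 to 3970 and 643 to 1126 counts, and Eps15l1 overlaps Klf2, with 1152 to 1358 counts, all on the opposite strand, so the same doubt holds for both. Hsp90aa1, a chaperone of the synthase named after its value was seen, was the last of the 5 at -0.21 (adjusted p = 0.0415), and it did not pass in 9 of 14 settings, among them without GapmeR sample 3 or 4, Negative Control 1 or Negative Control 2 (-0.19, -0.17, -0.25 and -0.13).

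Of 7 other caveola genes 5 were tested and 2 were lower. Cavin3 was lower by -0.46 (254 ± 8.44 against 350 ± 20.0 CPM, edgeR adjusted p = 7.09e-05) and Cavin2 by -0.24 (adjusted p = 0.0385), the latter lost in 8 of 14 settings. These include leaving out GapmeR sample 1, 2 or 3 (-0.21, -0.24 and -0.18), Negative Control 1 (-0.15) and Negative Control 2 (-0.30). Cav2, the partner of caveolin 1, stood at 0.07 (adjusted p = 0.541). Cav1 was thus the one caveola gene called higher, while Cavin1, Cav2, Ehd2 and Pacsin2 did not pass.

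The 7 genes of tetrahydrobiopterin synthesis and recycling beside Gch1 were all tested, and 4 were lower and 1 higher. Pcbd2, a pterin dehydratase, was lower by -0.65 (edgeR adjusted p = 0.00139). Spr, sepiapterin reductase, and Qdpr, which recycles the cofactor, were lower by -0.28 (adjusted p = 0.0199) and -0.23 (adjusted p = 0.0126), and lost their calls in 7 and 5 of 14 settings. Without Negative Control 1 or 2 Spr stood at -0.29 and -0.22 and Qdpr at -0.24 and -0.18, and without GapmeR sample 4 Spr stood at -0.21, none of which passed. Pts, which acts between Gch1 and Spr, stood at 0.39 (adjusted p = 0.0776), and Gchfr, the regulator of the Gch1 enzyme, at -0.15 (adjusted p = 0.16). Pts did pass in 5 of 14 settings, among them library-size scaling (0.54, adjusted p = 0.0248), no filter on low counts (0.39, adjusted p = 0.0161), without GapmeR sample 3 (0.50, adjusted p = 0.013) and without GapmeR samples 3 and 4 (0.60, adjusted p = 0.00172), and it stood at 0.23 without GapmeR sample 2. The gene called higher was Pcbd1, named after its value was seen. It had 8, 10, 13 and 4 counts after knockdown and 0 and 1 in the controls, and did not pass without Negative Control 1. Pcbd1 met the filter on low counts only through the GapmeR samples, so its call is no support for a rise.

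In arginine supply and methylarginine formation 9 of 10 genes were tested, with 1 higher and 2 lower. Prmt6, an arginine methyltransferase, rose by 0.47 (27.7 ± 1.87 against 20.0 ± 0.633 CPM, edgeR adjusted p = 0.000437). Asl, argininosuccinate lyase, which yields arginine, fell by 0.44 on the log2 scale (29.5 ± 1.13 against 40.1 ± 1.60 CPM, adjusted p = 0.000178). Slc7a1, the arginine transporter, was lower by -0.20 (adjusted p = 0.0295) and lost its call in 7 of 14 settings, among them without GapmeR sample 3 (-0.19), Negative Control 1 (-0.20) or Negative Control 2 (-0.17). Arg1, the other arginase, had at most 8 counts in a sample.

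Receptors for nitric oxide were scarce in these cells. Gucy1a1 and Gucy1b1, subunits of soluble guanylate cyclase, had at most 12 and 21 counts, with log2 fold changes of -0.73 (edgeR adjusted p = 0.242) and -0.47 (adjusted p = 0.278). Of 10 genes of this pathway 7 were tested and 1 was lower, Pde2a, named after its value was seen, at -0.81 (adjusted p = 0.0481), which did not pass in 8 of 14 settings. Without GapmeR sample 1 or 3 it stood at -0.76 and -0.75, and without Negative Control 1 or 2 at -1.02 and -0.52, none of which passed. The median of -0.73 over the 7 rests mostly on genes with few counts.

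The other ligands and the type A receptor of endothelin were at or near the floor of 3 counts, which was 0.0771 to 0.110 CPM. Edn2 had 0 counts in every sample, and Edn3 and Ednra had at most 1, and these 3 were not tested. Nor were the peptidase genes Ecel1 and Mme, with at most 3 and 4 counts, so that 3 of the 8 further endothelin genes were tested. Among those, Ece2, the second converting enzyme, was lower by -0.79 (25.5 ± 1.40 against 44.1 ± 2.23 CPM, edgeR adjusted p = 6.07e-07). Pcsk7, a proprotein convertase, was higher by 0.48 (50.1 ± 1.05 against 35.8 ± 1.79 CPM, adjusted p = 6.00e-05), and both kept their calls in all 14 settings. Rnf214 and Tagln overlap Pcsk7 on the opposite strand with 470 to 625 and 8 to 86 counts. As the strand setting is not given, the Pcsk7 value is uncertain. Eef1ece2, a protein-coding gene that was not among the genes counted, overlaps Ece2 on the same strand, so Ece2 counts may include its reads. Edn1 was the one endothelin ligand gene detected above the floor, and both converting enzyme genes were lower with it, Ece2 with that doubt.

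Of 26 other vasomotor genes 22 were tested, 6 higher and 5 lower, with a median near 0. Calcrl, the receptor component for adrenomedullin and calcitonin gene related peptide, fell from 347 ± 10.4 to 187 ± 15.6 CPM, a log2 fold change of -0.89 (edgeR adjusted p = 1.82e-07). Pla2g4a, which frees arachidonic acid, fell by 0.83 on the log2 scale (26.0 ± 0.900 against 46.2 ± 0.411 CPM, adjusted p = 1.58e-07), and Ptgs2, the inducible cyclooxygenase, by 0.49 (81.8 ± 5.43 against 115 ± 7.80 CPM, adjusted p = 8.36e-05). Ptgs1, the constitutive cyclooxygenase, stood at -0.22 (adjusted p = 0.383). The other genes called lower were Adm, adrenomedullin, at -0.52 (edgeR adjusted p = 0.000132), and Npr3, a natriuretic peptide clearance receptor, at -0.66 (adjusted p = 0.0216). Both were named after their values were seen. The Npr3 call held in 9 of 14 settings. It was lost with library-size scaling (-0.52, edgeR adjusted p = 0.0717) and in a fit blocked on replicate number. It was also lost without GapmeR sample 4 (-0.54), Negative Control 2 (-0.34) or GapmeR samples 3 and 4 together.

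The synthases of thromboxane and prostacyclin were higher on few counts. As more genes had counts in the GapmeR libraries, such rises were not read as particular to a gene. Tbxas1, thromboxane synthase, had 42, 56, 91 and 64 counts after knockdown and 22 and 29 in the controls, a log2 fold change of 1.13 (edgeR adjusted p = 0.0157). Its call held in 10 of 14 settings. It was lost in a fit blocked on replicate number and without Negative Control 1 or Negative Control 2. It was also lost without GapmeR samples 3 and 4 together (0.66, edgeR adjusted p = 0.0763). GapmeR samples 3 and 4 had the highest macrophage marker sums, whose part in this result was not tested. Hipk2 overlaps Tbxas1 on the opposite strand with 252 to 400 counts, more than Tbxas1 itself, so this value is uncertain. Ptgis, prostacyclin synthase, had 15, 13, 10 and 16 counts against 5 and 3, a log2 fold change of 1.53 (edgeR adjusted p = 0.0276). Its call held in 8 of 13 settings. It did not pass without GapmeR sample 1 (1.47), GapmeR sample 4 (1.41) or Negative Control 2 (1.13), in DESeq2's Wald test or in a fit blocked on replicate number. Gja5, connexin 40, at 0.77 (adjusted p = 0.00146) passed in all 14 settings but is uncertain, since Gpr89 overlaps it on the opposite strand with 528 to 739 counts against its own 180 to 518. Nppc, Aplnr and Bdkrb2 had at most 40, 11 and 8 counts, and these 3 and Gja5 were named after their values were seen. In the controls Aplnr had 2 and 3 counts and Bdkrb2 had 0 and 1. Both met the filter on low counts only through the GapmeR samples, so their calls are no support for a rise. Calls held in 8 of 14 settings for Nppc, 3 of 13 for Aplnr and 6 of 12 for Bdkrb2. All 3 genes lost their calls in DESeq2's Wald test, without Negative Control 1 and without Negative Control 2. They also did not pass without GapmeR sample 4 (edgeR adjusted p = 0.0777, 0.0865 and 0.0765). Without GapmeR samples 3 and 4, left out after the data were seen, the 10 vasomotor genes gave 1 higher and 4 lower. GapmeR samples 1 and 2 also had macrophage marker sums above both controls (227 and 208 against 177 and 172 CPM). Leaving samples out therefore did not test the part of these markers.

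**Figure D4:**
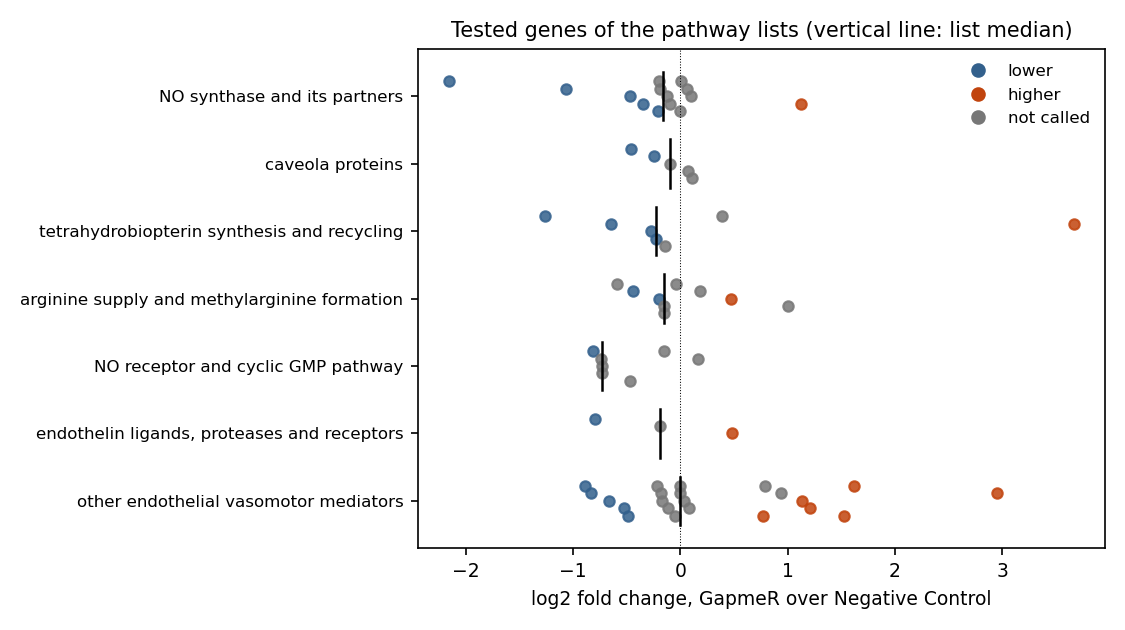
Log2 fold changes, GapmeR over Negative Control, of the 67 tested genes of 7 pathway lists. Points are genes, coloured by whether the edgeR adjusted p was under 0.05, vertical placement within a list is only for legibility, and the vertical bar of each list is its median. Calls lie on both sides of 0, with 10 higher and 20 lower, and the point farthest right is Pcbd1, which had at most 13 counts.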

How the data were processed

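Paired reads came from ribosome-depleted RNA of bEND.3 cells. Per the submitters' processing notes, Trimmomatic 0.36, STAR 2.5.2b, Subread 1.5.2 and the mm10 build (GRCm38) were used, and the authors deposited raw counts of reads for each Ensembl gene, without normalization. Neither the strand setting nor the release of Ensembl is given in the sources used here. The study gives n = 4 for each group, and 4 GapmeR and 2 Negative Control samples were analysed here. Another 1 column of per-sample counts matched no label and was not used.

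Genes reaching 5 counts in 2 or more samples were TMM-normalized and tested with edgeR 4.0.16 in R 4.3.3 (quasi-likelihood test, Benjamini-Hochberg adjustment over all 18234 genes, threshold 0.05). The study used DESeq2. CPM are TMM-scaled, and SDs are between samples. The biological coefficient of variation was 8.42%. Chi-square over degrees of freedom between replicates was 5.87 to 28.0, so all replicates differed by more than sampling noise. Alternatives were DESeq2 1.42.0 (size factors and Wald test), limma 3.58.1 voom, library-size scaling, 2 other filters, a 1.5-fold threshold, the replicate block and each sample left out. Leaving out GapmeR samples 3 and 4 was chosen after seeing the data. The tests were tested on simulated data in which 200 genes were changed, a far smaller share than the 45.3% called in the real data. The share of false calls among edgeR's calls, and among DESeq2's, was above both the nominal 0.05 and the limit first set, which was then relaxed. That share depends on how many genes change, so its size does not carry over to these data. Adjusted p-values just under the threshold are still taken as less certain than they read. Python 3.11.15, pandas 2.3.3 and scipy 1.17.1 made the tables.

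The members and gene lists were chosen with earlier results of these data known. Genes named are the 10 members, 25 fixed pathway genes, 1 of which is not reported here, and per list the 3 or fewer most changed genes that passed the threshold, averaged 1 CPM or more and did not overlap between groups. The 9 genes named after their values were seen are marked. The 174 gene identifiers without a symbol were counted as genes. Exon lengths and overlapping genes come from GENCODE vM39 on GRCm39, joined by identifier, and gene coordinates and promoter sequences from RefSeq on GRCm38.p6. The strand of each promoter was checked against transcripts.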

Additional observations from a re-analysis of the deposited data

Results flagged for a closer look

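Among 48 sets of 4 GapmeR values tested for a sample far from the rest, 1 stood out. Slc7a1, the arginine transporter, had 142 CPM in GapmeR sample 2, below the other GapmeR samples, with a gap of 0.853 of the group's range in Dixon's test. Chance gives about 1 such value in 20.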

How the results depend on the processing

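The calls of Ddah1, Edn1 and Ece1 held under all 14 alternatives. Library-size scaling gave 2 of the 10 genes higher, 12 pathway genes lower and 2135 of all genes lower, and turned the sign of Nos3 (0.0656), Cavin1 (0.0809), Ednrb (0.0715), Gchfr (0.00081) and Nos1 (0.0220), and the cause was not tested beyond the upward shift of all genes it brings. A 1.5-fold threshold, stricter by construction, left 0 of the 10 genes higher, 9 pathway genes lower and 1390 of all genes lower. DESeq2's Wald test gave 6 pathway genes higher, and the cause was not tested. Leaving out 1 sample, with fewer samples by construction, gave 0 to 1 of the 10 genes higher, 5 to 10 pathway genes higher, 12 to 21 lower, 1930 to 3949 of all genes lower, a log2 ratio of Arg2 to Nos3 of 0.55 (without Negative Control 1) to 1.48 (without Negative Control 2) and Nos1 between -0.48 and 0.35. The lowest counts of calls came without Negative Control 1 (5 pathway genes higher, 12 lower, 2262 of all genes lower) and without Negative Control 2 (5, 12 and 1930), and without GapmeR sample 4 there were 6 pathway genes higher. Leaving out GapmeR samples 3 and 4 gave Nos1 at 0.0764.

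The replicate numbers come from the titles, while the codes in the descriptions number the samples differently. Deviations of same-numbered samples correlated at -0.110 and 0.172 over 8870 genes. With so few controls, their deviations from the group mean mirror each other. These correlations therefore cannot decide whether same-numbered samples were handled together. The replicate block, on 4 samples with 1 residual degree of freedom, called 7798 genes against 8268, of which 7131 were shared. Of the 10 genes it called 0 higher, with Cav1 at 0.27 (adjusted p = 0.0549), and it changed no other call among them. Nos1 turned to 0.0629, and Pts passed (0.59, adjusted p = 0.000187).

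With 2 controls, a permutation test cannot pass the threshold. At the depth of Arg2 the interval of the log2 fold change ran from -0.09 to 1.75, and floors cover counting error only.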
